A study of Mus musculus with 31 samples.

Results

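The mRNAs of cellular iron homeostasis were followed in the Ba/F3 line of mouse lymphoid cells, which grows on interleukin-3, in total mRNA and in the RNA bound to polysomes. The 8 genes were chosen by symbol from the 41255 gene symbols of both tables. They are Fth1 and Ftl1 (the heavy and light chains of ferritin), Tfrc (the transferrin receptor), Ireb2 and Aco1 (the iron regulatory proteins IRP2 and IRP1), Slc11a2 (the iron importer DMT1), Slc40a1 (the iron exporter ferroportin) and Alas1 (the first enzyme of haem synthesis). All 8 were listed in both tables, 6 had enough reads to be tested, and Aco1 and Slc40a1 did not.

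In each clone the cells carried a retroviral human RPL10 cDNA, either WT or R98S, together with an shRNA against the endogenous mouse Rpl10. RPL10 belongs to the large subunit of the ribosome, and the R98S mutation replaces an arginine by a serine in some T-cell leukemias. Each genotype was represented by 3 clones, each grown from a single cell, with the labels 28, 29 and 36 for WT and 11, 13 and 35 for R98S. Total mRNA was sequenced in 8 WT and 9 R98S libraries, and polysomal RNA, pooled from gradient fractions with a pair of ribosomes or more, in 6 WT and 8 R98S libraries, with replicate numbers from 1 to 3 per clone. Libraries of 1 clone share their origin, so the p-values measure the spread between these libraries and not between independently made cell lines.

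Iron controls these mRNAs through the iron-responsive element (IRE), a short hairpin with a bulged C and a loop that begins with CAGTG. When iron is scarce, IRP1 and IRP2 bind the hairpin. Bound in the 5′ UTR of ferritin or ferroportin mRNA they block the start of translation, so the mRNA leaves polysomes; bound in the 3′ UTR of transferrin receptor mRNA they protect it from decay. IRP1 is a cytosolic aconitase when it carries an iron-sulfur cluster, whereas IRP2 is degraded in iron-replete cells after recognition by FBXL5. Ferritin stores iron, the transferrin receptor brings it in, and proliferating blood cells are known for high levels of the receptor.

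The hairpins are printed because they divide the genes by the type of control. They were found by pattern in the GENCODE M21 transcripts of the GRCm38 mouse genome as 5 paired bases (Watson-Crick or G-T) on either side of a loop of CAGTGN, with an unpaired C before the stem, and the capitals mark that C and the loop. Only the transcript strand was searched, and each element is written as DNA, 5′ to 3′ along the transcript. The elements of the ferritin mRNAs and of Slc40a1 lie in the 5′ UTR, at chr19:9982732-9982760 on the plus strand for Fth1, at chr7:45459779-45459807 on the minus strand for Ftl1 and at chr1:45925465-45925493 on the minus strand for Slc40a1.
Fth1: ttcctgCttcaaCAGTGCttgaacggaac
Ftl1: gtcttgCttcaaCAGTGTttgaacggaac
Slc40a1: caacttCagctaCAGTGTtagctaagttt

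The bulged C is base 93 of the Fth1 transcript and base 84 of the Ftl1 transcript. The ferritin elements were identical at 26 of 29 bases, and the Fth1 and Slc40a1 elements at 13 of 29. Tfrc carried 4 elements in its 3′ UTR, all on the plus strand, at chr16:32631219-32631247, chr16:32631598-32631626, chr16:32631663-32631691 and chr16:32631710-32631738.
Tfrc, the element nearest the coding sequence: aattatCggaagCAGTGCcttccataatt
Tfrc, next element: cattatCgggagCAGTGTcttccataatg
Tfrc, next element: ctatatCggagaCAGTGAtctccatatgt
Tfrc, the element farthest from the coding sequence: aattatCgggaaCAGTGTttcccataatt

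Any 5′ UTR matched the same pattern in 18 of 18191 genes (0.099%), and any 3′ UTR in 100 of 18778 genes (0.533%). Slc11a2 held a weaker form with 4 pairs in the 3′ UTR of an alternative transcript, at chr15:100395153-100395181 on the minus strand, written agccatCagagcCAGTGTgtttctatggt. No match was found in the UTRs of Ireb2, Aco1 or Alas1.

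Reads assigned to genes ranged from 9338671 to 22059792 per total mRNA library and from 8831180 to 20754046 per polysomal library. Values are normalised read counts, which the authors obtained by dividing reads by a size factor per library. The tables were normalized separately, so a ratio between them has meaning only against other genes. Polysomal libraries with number 3 stood apart, with sums of normalised counts from 16404975 to 18467666, against 12382109 to 13546555 in numbers 1 and 2. Of 10 markers of an interleukin-3-dependent lymphoid line, 5 were detected with a mean of 10 or more, among them Csf2rb, a receptor chain for interleukin-3, and Cd79b, a part of the B-cell receptor, while Il7r was at 0 in all libraries and Pax5 in all total mRNA libraries. The sum of all 10 was 56032 to 101336 in WT and 109431 to 221064 in R98S total mRNA. Of the 5 lymphoid markers tested in total mRNA, 3 were called higher in R98S and 1, Ptprc, was called lower (-0.48, adjusted p = 0.0646 in limma). Markers of other blood lineages were also present, and of those tested in total mRNA 3 of 5 for macrophages and 1 of 5 for erythroid cells were lower and 3 of 4 for mast cells and basophils were higher in R98S. Over all genes 15.8% were called lower and 14.5% higher, and the erythroid count of 1 in 5 is near that background. The sum of 9 macrophage markers in total mRNA was 2691 to 6820 in WT and 270.1 to 3452 in R98S, that of 8 mast cell and basophil markers 618.9 to 10209 and 517.6 to 59938, and that of 10 erythroid markers 2495 to 7537 and 2017 to 4892. A few genes made up most of these sums, so they do not show a shift of whole lists. In total mRNA Emr1 of macrophages averaged 4497 in WT and 1232 in R98S, whereas Cd68 averaged 98.13 and 123.3. Cma1 of mast cells averaged 3449 and 22068. The lymphoid sum was mostly Csf2rb (41121 and 94858) and Csf2rb2 (30587 and 70968). The markers Marco and Vcam1 of macrophages and Fcer1a and Prss34 of mast cells and basophils were at 0 in all polysomal libraries. In bulk RNA a change in the number of cells of a type cannot be told apart from a change in RNA per cell, and the part of these markers in the results below was not tested. Rpl10, the targeted gene, differed by -0.08 on the log2 scale in total mRNA (SE 0.32, adjusted p = 0.885 in limma) and was lower in R98S in polysomal RNA (-1.20, SE 0.36, adjusted p = 0.0490 in limma). Clones of both genotypes carried the shRNA against it, and human RPL10 reads may be counted on it, so its level does not check the genotype labels.

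The ferritin mRNAs were by far the most abundant of the group. Per kilobase of annotated transcript, Fth1 stood at 21453 ± 2805 normalised counts in WT total mRNA (SD, n = 8) and Ftl1 at 15260 ± 2690 (SD, n = 8). Tfrc followed at 789.4 ± 221.5, Ireb2 at 375.9 ± 68.8, Alas1 at 204.7 ± 34.5 and Slc11a2 at 181.8 ± 20.98 on the same scale. In total mRNA the reads of a tested member in a library ranged from 316, for Slc11a2, to 26486, for Fth1. The order was the same in R98S total mRNA, where Fth1 stood at 18038 ± 2839 and Ftl1 at 15051 ± 2901 (SD, n = 9). The ranges of Fth1 and Ftl1 did not overlap in WT, where the lowest Fth1 library was at 18250 and the highest Ftl1 library at 18170, but they overlapped in R98S. Tfrc and Ireb2 did not overlap in total mRNA of either genotype, whereas Alas1 and Slc11a2 were neighbours whose ranges overlapped in both. In polysomal RNA the order of the group means was again the same, but in R98S the place of Alas1 above Slc11a2 rested on clone 13, number 3, without which they stood at 138.8 ± 8.92 and 141.3 ± 11.6 per kilobase (SD, n = 7). The ferritin mRNAs led there too, with Fth1 at 9493 ± 1193 and Ftl1 at 6018 ± 994.3 per kilobase in WT (SD, n = 6).

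The level of Ftl1 is uncertain, because 78.9% of all 50-base stretches in the Ftl1 transcript are found in transcripts of 15 other genes as well, among them Ftl1-ps1, Gm15590 and Ftl2-ps, and 47.9% of its exonic bases overlap other annotated genes. For Fth1 the shared part was 6.59%, for Slc11a2 0.504%, and for Tfrc, Ireb2, Aco1, Slc40a1 and Alas1 it was 0. The genes lie at chr19:9980598-9985098 on the plus strand (Fth1), chr7:45457944-45459884 on the minus strand (Ftl1), chr16:32608920-32632794 on the plus strand (Tfrc) and chr9:54863789-54912530 on the plus strand (Ireb2). Slc11a2 lies at chr15:100387898-100425072 and Alas1 at chr9:106233455-106248654, both on the minus strand, as is Slc40a1 at chr1:45908068-45926523, and Aco1 is at chr4:40143081-40198338 on the plus strand. The transcripts used here measure 929 bases for Fth1, 968 for Ftl1, 4890 for Tfrc, 5770 for Ireb2, 3025 for Slc11a2 and 3089 for Alas1.

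Slc40a1 and Aco1 were silent or nearly so. Slc40a1, the only known exporter of iron, had 0 reads in all 31 libraries, out of 487011401 reads, which allows at most 0.0062 CPM (3 counts of the total, for counting error only). Aco1 had 5 reads in 3 of the 17 total mRNA libraries and 1 read in the 14 polysomal libraries. The regulator Ireb2 was thus measured without its partner Aco1, at 1352 to 2718 normalised counts in every total mRNA library.

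**Figure D1:**
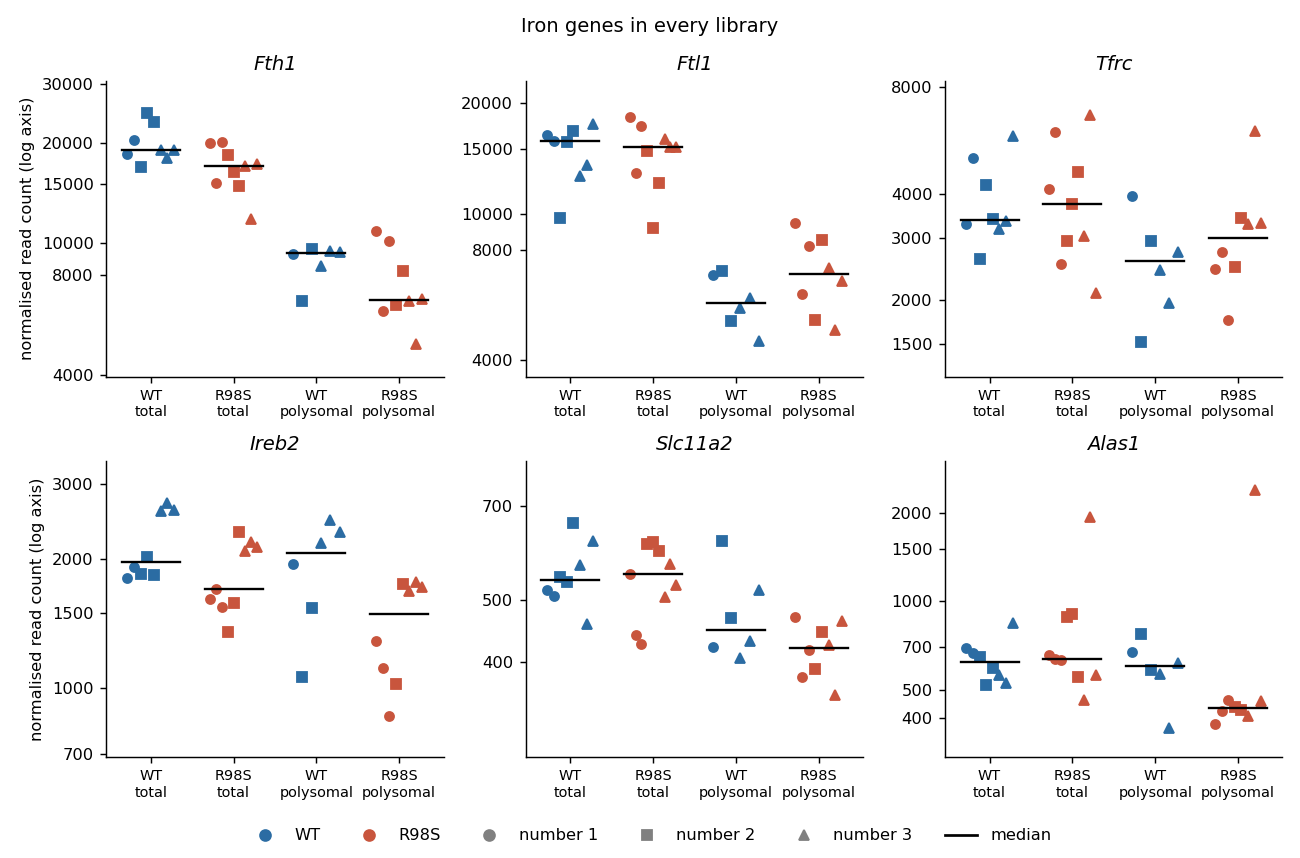
Normalised read count (log axis) of the 6 tested genes in each library, by fraction and genotype, with the replicate number as the symbol and the median as a bar. The tables were normalized separately, so only values of the same fraction compare directly. The R98S library of clone 13 with number 3 has the highest Tfrc and Alas1 and the lowest Fth1 values in total mRNA.

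The first question was how much of each mRNA sat on polysomes. For each culture, the log2 ratio of polysomal to total value was taken and the median over the 10627 genes tested in both tables was subtracted, so that 0 is the median gene. Both ferritin mRNAs lay well below the median gene in either genotype. The other 4 tested genes had group means between -0.33 and 0.24. A gene was called off the median gene at an adjusted p under 0.1 (limma, Benjamini-Hochberg over all genes tested, two-sided). In WT, 2 of the 6 tested members were called, Fth1 and Ftl1, both lower, where 64.6% of all genes were called and 31.5% were called lower. In R98S it was again these 2, both lower, where 60.9% of all genes were called and 30.3% were called lower. Most genes were thus called off the median gene in this comparison.

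Fth1 encodes the chain that oxidises iron for storage. Its centred log2 ratio in WT was -0.83 ± 0.19 (SD, n = 6 cultures), a ratio 1.78-fold below that of the median gene, with an adjusted p of 2.86e-04 in limma. The cultures ranged from -1.06 in WT clone 28, number 2, to -0.59 in WT clone 29, number 3. In R98S it was -0.89 ± 0.20 (SD, n = 8), 1.85-fold below the median gene, with an adjusted p of 4.27e-05 in limma and a range from -1.07 to -0.57. All 14 cultures were thus below the median gene, and the genotypes overlapped over nearly their whole range.

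Ftl1 encodes the light chain, which helps to form the mineral core. Its centred log2 ratio was -0.95 ± 0.48 in WT (SD, n = 6), 1.93-fold below the median gene, and -0.79 ± 0.32 in R98S (SD, n = 8), 1.73-fold below it. The adjusted p was 7.31e-04 in WT and 0.0011 in R98S in limma. The spread was wider than for Fth1, from -1.62 in WT clone 36, number 3, to -0.20 in WT clone 28, number 2, but again all 14 cultures lay below 0. The study kept only primary alignments that reached a minimum mapping quality. How many Ftl1 reads this removed, and how many reads of its copies remained, is unknown.

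The low ferritin ratios stood against the trend with transcript length. Over all genes, mRNAs of up to 2500 bases had higher median ratios than longer ones. The median ratio in WT was 0.64 for the 797 genes with transcripts of up to 1000 bases, 0.72 for 1023 genes from 1001 to 1500 bases, 0.39 for 2416 genes from 1501 to 2500 bases and -0.61 for 2954 genes over 4000 bases. Only 40 of the 797 short genes had a lower ratio than Fth1 in WT, and 33 had a lower ratio than Ftl1. In R98S these counts were 27 for Fth1 and 36 for Ftl1. Among all genes tested, Fth1 stood at percentile 18.5 in WT and 13.8 in R98S, and Ftl1 at 15.6 and 16.03. These are descriptions of position, with no test, and the annotated length may not be the length of the transcript used in these cells.

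**Figure D2:**
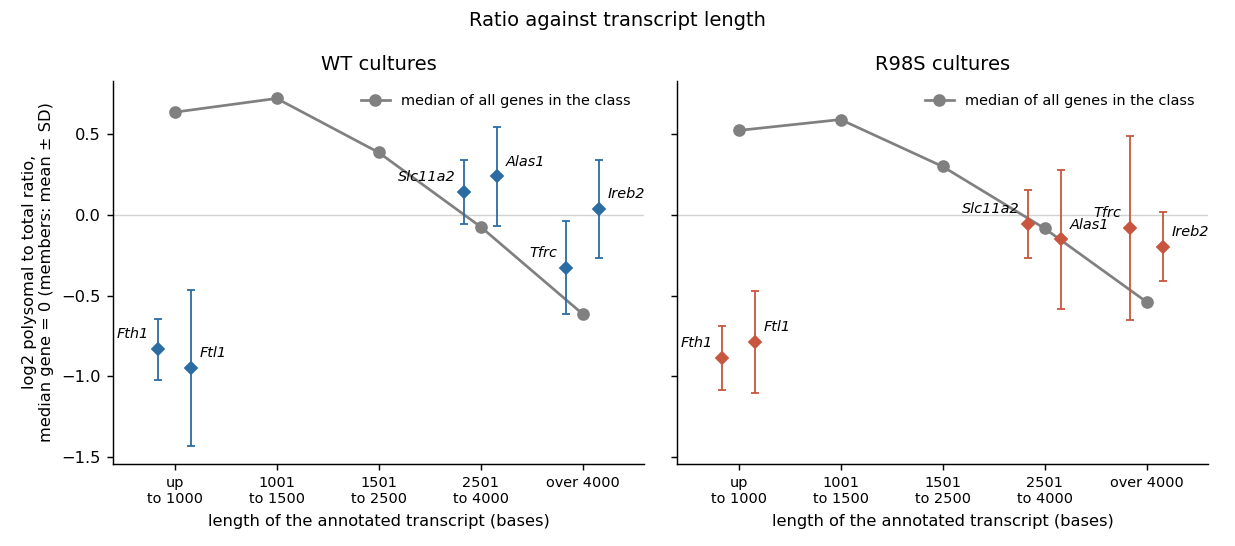
Log2 ratio of polysomal to total value (median gene = 0) against the length class of the annotated transcript, in WT (left) and R98S (right) cultures. Grey points are medians of all genes in a class, and diamonds are the means of the named genes with their SD over 6 WT or 8 R98S cultures. Fth1 and Ftl1 lie far below the median of their class, 0.64 in WT and 0.52 in R98S.

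Tfrc, whose elements are in the 3′ UTR and act on stability, had a centred log2 ratio of -0.33 ± 0.29 in WT (SD, n = 6) and -0.08 ± 0.57 in R98S (SD, n = 8). Neither was called (adjusted p = 0.149 and 0.697 in limma). Against the long transcripts of its class, with medians of -0.61 in WT and -0.54 in R98S, Tfrc stood at percentiles 65.6 and 76.8. The R98S cultures split by replicate number, since the 3 cultures with number 3 ranged from 0.18 to 0.94 and the other 5 from -0.86 to -0.15.

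Ireb2, which has no IRE of its own by this pattern, had a centred log2 ratio of 0.04 ± 0.30 in WT (SD, n = 6) and -0.20 ± 0.21 in R98S (SD, n = 8), with adjusted p of 0.825 and 0.147 in limma. Slc11a2, which carries iron across the membrane of the endosome, had 0.14 ± 0.20 and -0.06 ± 0.21. Alas1, the step that commits glycine and succinyl-CoA to haem, had 0.24 ± 0.31 and -0.15 ± 0.43. None of these was called in either genotype, and each mRNA had ratios close to or above the median of its length class except Alas1 in R98S, which differed from its class by -0.07.

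**Figure D3:**
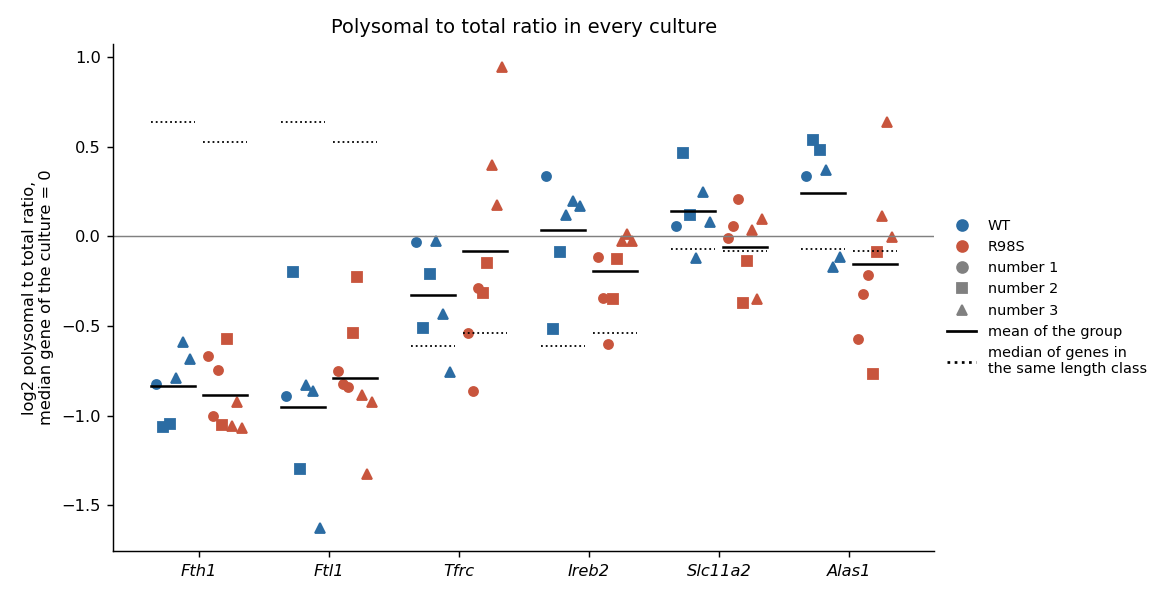
Log2 ratio of polysomal to total value in each of 14 cultures, with 0 for the median gene of the culture, the group mean as a solid bar and the median of genes in the same length class as a dotted bar. All 14 cultures lie below 0 for Fth1 and for Ftl1, as do all 6 WT cultures for Tfrc, and the other groups have cultures on either side of 0.

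Other mRNAs with a described IRE were looked at in the same way. Cdc14a, with a 3′ element of 4 pairs, had a ratio of -0.13 in WT and -0.04 in R98S and was not called. Alas2, the erythroid form of the haem enzyme, averaged 4.18 normalised counts in WT and 3.98 in R98S total mRNA. Taking all 12 tested genes with a 5′ UTR match of 5 pairs, 4 lay below the median gene in WT, and the lowest were Ftl1 and Fth1.

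The next question was whether R98S changed the amount of these mRNAs. In total mRNA, 1 of the 6 tested members was called, Fth1, which was lower in R98S, where 30.3% of all genes were called and 15.8% were called lower. A count of 1 in 6 is near that background. The lowest, median and highest values of Fth1 were 11768, 17023 and 20077 in R98S (n = 9) and 16954, 18967 and 24537 in WT (n = 8). The groups overlapped, with 4 of 9 R98S libraries below all WT libraries and 3 of 8 WT libraries above all R98S libraries. The difference was -0.26 on the log2(value + 1) scale (SE 0.11), 1.20-fold lower in R98S, with an adjusted p of 0.0953 in limma.

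By clone, the mean Fth1 value was 18444, 14417 and 17412 in R98S clones 11, 13 and 35, and 18134, 21008 and 21007 in WT clones 28, 29 and 36. The call was close to the threshold. It was lost in 27 of 41 alternative analyses, among them edgeR (adjusted p = 0.115) and the means per clone (adjusted p = 0.155 in limma), with the same direction in all 41. Leaving out R98S clone 13 brought the difference to -0.15 and ended the call, with an adjusted p of 0.343 in limma. So did leaving out any 1 of 12 of the 17 libraries, namely number 3 of R98S clone 11, numbers 1, 2 and 3 of R98S clone 13, numbers 2 and 3 of R98S clone 35, number 3 of WT clone 28, numbers 1, 2 and 3 of WT clone 29 and numbers 2 and 3 of WT clone 36, with differences from -0.28 to -0.20 and adjusted p from 0.1003 to 0.1835 in limma. The ranges of the macrophage marker sum overlapped between the genotypes, with medians of 4903 in WT and 866.8 in R98S, and its part in this difference was not tested. A WT library that the study left out for its likeness to R98S is not analysed here, and the total mRNA differences of Fth1, and those of Ireb2 and Fbxl5 below, are conditional on its absence.

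Ireb2 had lowest, median and highest values of 1352, 1705 and 2323 in R98S (n = 9) and 1804, 1977 and 2718 in WT (n = 8). The groups overlapped, though 5 of 9 R98S libraries were below all WT libraries and 3 WT libraries were above all R98S libraries. The difference was -0.24 on the log2 scale (SE 0.13) and was not called (adjusted p = 0.180 in limma). With the number as a block the difference was -0.22 (SE 0.09) and was called (adjusted p = 0.0616 in limma), so that 2 members, Fth1 and Ireb2, were called, where 38.4% of all genes were. At number 3 the 3 R98S libraries lay from 2096 to 2197 and the 3 WT libraries from 2593 to 2718. At number 1 the R98S libraries lay from 1543 to 1705 and the WT libraries at 1804 and 1924. At number 2 the R98S libraries, from 1352 to 2323, lay on both sides of the WT libraries, from 1834 to 2030.

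The remaining 4 tested members did not differ detectably in total mRNA. Ftl1 had a median of 15203 in R98S and 15730 in WT, and a difference of -0.02 (95% interval -0.31 to 0.26). Tfrc had lowest, median and highest values of 2089, 3751 and 6669 in R98S and 2621, 3360 and 5828 in WT. Its R98S libraries spread beyond WT at both ends, with 2 above and 2 below all WT libraries, and the difference was -0.01 (95% interval -0.46 to 0.44, adjusted p = 0.980 in limma). Slc11a2 was the steadiest member, from 426.6 to 657.5 in all 17 libraries, with a difference of -0.04 (95% interval -0.24 to 0.17).

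Alas1 in total mRNA had lowest, median and highest values of 461.6, 638.4 and 1928 in R98S and 518.8, 621.1 and 842.1 in WT. A single R98S library, clone 13 with number 3, stood above every other library, the next being R98S clone 13 with number 2 at 908.2. The difference was 0.22 (SE 0.21, adjusted p = 0.479 in limma), and without the former library it was 0.05.

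**Figure D4:**
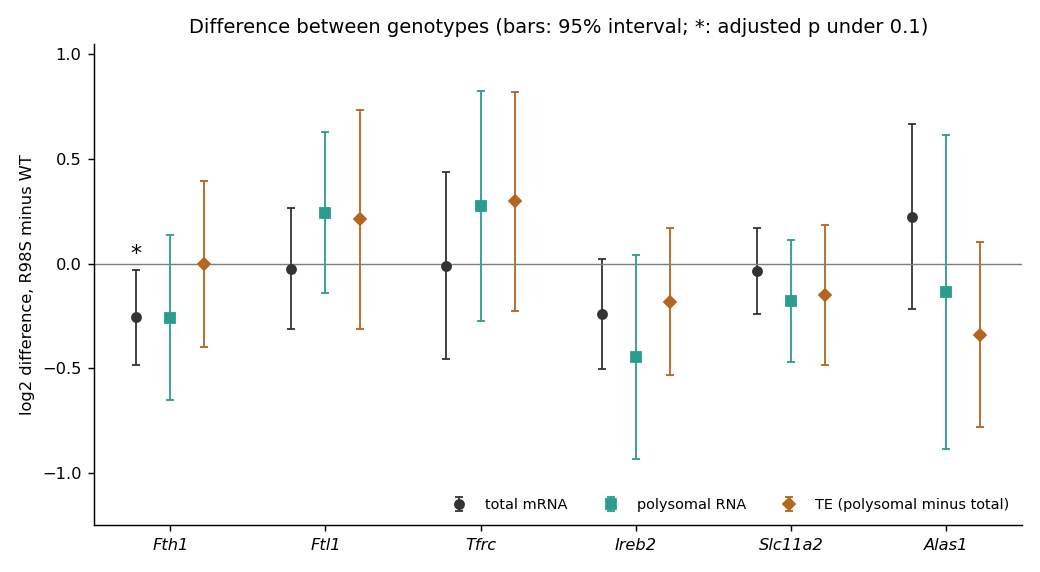
Log2 difference between R98S and WT for the 6 tested genes, by fraction and for TE, the change in the ratio of the fractions, with 95% intervals and an asterisk for an adjusted p under 0.1. The one asterisk is at Fth1 in total mRNA, -0.26, and the TE intervals all span 0.

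On polysomes, none of the 6 tested members was called between R98S and WT. The count was 0 by limma, where 13.5% of all genes were called (7.66% higher and 5.87% lower in R98S). It was 0 at an unadjusted p under 0.05 in limma, where 2326 of 10707 genes passed, and 0 by edgeR, which called 1450 of 10707. By DESeq2, which called 1911 of 10697 genes, the count was 1, Alas1, which was lower (-0.45, adjusted p = 0.0295). By edgeR Alas1 had the opposite sign and was not called (0.16, adjusted p = 0.881). Fth1 in polysomal RNA had lowest, median and highest values of 4953, 6745 and 10844 in R98S (n = 8) and 6686, 9323 and 9567 in WT (n = 6). The R98S libraries spread on either side of WT, with 3 below and 2 above all WT libraries. The difference was -0.26 (95% interval -0.65 to 0.14, adjusted p = 0.486 in limma).

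Ftl1 in polysomal RNA had lowest, median and highest values of 4837, 6853 and 9430 in R98S and 4521, 5735 and 6992 in WT. Here 4 of 8 R98S libraries were above all WT libraries, and the difference was 0.24 (95% interval -0.14 to 0.63, adjusted p = 0.507 in limma). Tfrc had 1752, 3005 and 6000.0 in R98S and 1518, 2584 and 3950 in WT. The groups overlapped apart from 1 library at each end, and the difference was 0.27 (95% interval -0.28 to 0.82, adjusted p = 0.629 in limma). Without R98S clone 13, number 3, which held the highest value, it was 0.13.

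Ireb2 in polysomal RNA had lowest, median and highest values of 860.1, 1488 and 1768 in R98S and 1061, 2069 and 2469 in WT. Of the 6 WT libraries, 4 were above all R98S libraries, and the difference was -0.45 (95% interval -0.94 to 0.04, adjusted p = 0.278 in limma). The lowest WT value came from clone 28, number 2, and without that library the difference was -0.61 and was called (adjusted p = 0.0821 in limma). Slc11a2 lay between 355.7 and 470.1 in R98S libraries and between 406.2 and 617 in WT libraries, with a difference of -0.18 (95% interval -0.47 to 0.11).

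The values of Alas1 in polysomal RNA were 382.9 at the lowest, 432.8 at the median and 2391 at the highest in R98S, and 370.5, 600.7 and 774.7 in WT. Of the 8 R98S libraries, 7 lay between 382.9 and 460.8, below all WT libraries but one, WT clone 29 with number 3, and the remaining one was R98S clone 13 with number 3. The difference was -0.14 (SE 0.35, adjusted p = 0.889 in limma), and without the latter library it was -0.45 and was called (adjusted p = 0.0998 in limma). In total mRNA that library had the lowest mast cell and basophil marker sum of all 17, 517.6, and a macrophage marker sum of 3452, the highest in R98S. The part of these marker genes in its Alas1, Tfrc and Fth1 values was not tested.

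Polysomal libraries of number 3 stood apart in both genotypes, so the differences were also taken within each number. Within number 3, with 3 libraries per genotype, 3 members were called, where 20.9% of all genes were. Fth1 was lower in R98S (-0.58, SE 0.16, adjusted p = 0.0468 in limma), with R98S from 4953 to 6798 and WT from 8534 to 9480. Tfrc was higher in R98S (0.77, SE 0.25, adjusted p = 0.0751 in limma), with R98S from 3273 to 6000.0 and WT from 1961 to 2737. Ireb2 was lower in R98S (-0.43, SE 0.13, adjusted p = 0.0608 in limma), with R98S from 1688 to 1768 and WT from 2188 to 2469. The genotypes did not overlap within number 3 for 3 of the 6 tested members, the same 3 genes, where they did not overlap for 35.7% of all genes.

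The other numbers gave other values. Within number 1, with a single WT library assumed to vary as the others, the differences were -0.07 for Fth1, -0.80 for Tfrc and -0.86 for Ireb2. Within number 2 they were -0.13, 0.46 and 0.06. There 0 members were called in limma, where only 321 of 10707 genes were, so this count says little about the members. The change of the genotype difference from numbers 1 and 2 to number 3 was tested as an interaction, an analysis added after seeing the data. It was -0.54 for Fth1 (adjusted p = 0.718 in limma) and 0.83 for Tfrc (adjusted p = 0.697 in limma), and 0 of the 6 members were called. In polysomal RNA 0 members had an unadjusted p under 0.05, where 787 of 10707 genes had. Only 0.028% of all genes were called by this term, so its count of 0 says little about the members, and whether number 3 differs from the others was not settled.

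**Figure D5:**
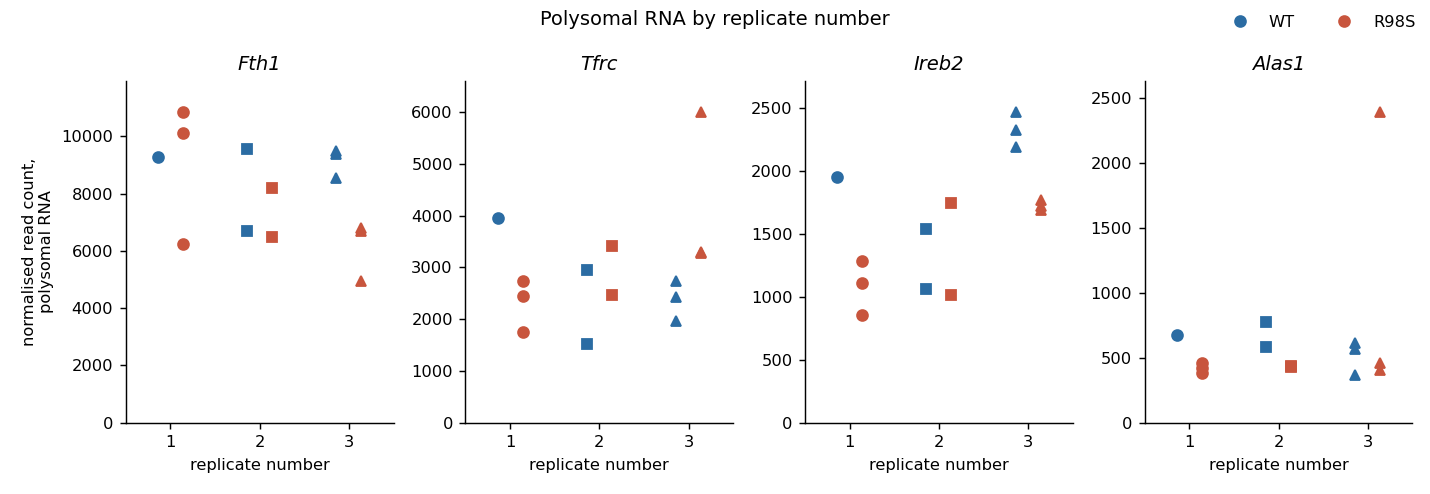
Polysomal normalised read count (linear axis from 0) of Fth1, Tfrc, Ireb2 and Alas1 by replicate number and genotype, each point a library. In number 3 the R98S libraries lie below the WT libraries for Fth1 and Ireb2 and above them for Tfrc, without overlap, and in number 1 the single WT library lies above all 3 R98S libraries for Tfrc and Ireb2.

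The last comparison asked whether the genotype changed the ratio of polysomal to total mRNA, the translational efficiency (TE), in the 14 matched cultures. No member was called. The count was 0 of 6 by limma, where 0.047% of all genes were called, and 0 by edgeR, which called 1 gene in all. In limma 0 members had an unadjusted p under 0.05, where 687 of 10627 genes had. For Fth1 the difference in TE was 0.00 on the log2 scale (95% interval -0.40 to 0.39), for Ftl1 0.21 (-0.31 to 0.74), and for Tfrc 0.30 (-0.22 to 0.82). For Ireb2 it was -0.18 (-0.53 to 0.17), for Slc11a2 -0.15 (-0.48 to 0.18) and for Alas1 -0.34 (-0.78 to 0.10). For Fth1 the interval runs from 0.758 to 1.31 times the WT value. By number, the TE difference for Tfrc was -0.46 within number 1, with a single WT culture, and 0.14 within number 2. Within number 3 it was 0.96 (adjusted p = 0.234 in limma), and its change against numbers 1 and 2 was 1.09 (unadjusted p = 0.0078, adjusted p = 0.562 in limma).

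The other genes of iron metabolism were taken by list. Among 6 genes of IRP2 turnover and ferritin breakdown, all tested, 2 were lower in R98S and 0 higher in total mRNA, where 30.3% of all genes were called and 15.8% were called lower, with a median difference of -0.18 against 0.00 over all genes. A count of 2 in 6 is near the share of all genes called. Fbxl5, the iron-sensing subunit that marks IRP2 for degradation, had lowest, median and highest values of 208.5, 299 and 498.5 in R98S and 451.2, 623.2 and 780 in WT. Of the 9 R98S libraries 8 were below all WT libraries. The difference was -1.01 (SE 0.17), 2.01-fold lower, with an adjusted p of 3.79e-04 in limma. Skp1a, a subunit of the same ubiquitin ligase, was also lower (-0.26, SE 0.08, adjusted p = 0.0337 in limma).

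On polysomes Fbxl5 was again lower in R98S, with 114.3, 208.1 and 302.1 in R98S and 239.6, 414.2 and 570.8 in WT, and a difference of -0.97 (SE 0.25, adjusted p = 0.0203 in limma). Cul1, the scaffold of the ligase, was also lower (-0.60, SE 0.19, adjusted p = 0.0536 in limma). In polysomal RNA the list thus had 2 lower and 0 higher of 6, where 13.5% of all genes were called and 5.87% were called lower, with a median of -0.61 against -0.02 over all genes. In TE 0 were called by limma, where only 0.047% of all genes were. In the polysomal to total ratio in WT 5 of the 6 were called, where 64.6% of all genes were. There Herc2, a large ubiquitin ligase for NCOA4, was at -2.45 from the median gene (SE 0.29) and Ncoa4, the receptor that takes ferritin to lysosomes, at -1.85 (SE 0.35), while Cul1 was at 0.60 (SE 0.14). At the upper end were Skp1a at 1.60 (SE 0.40) and Rbx1, the RING subunit of the ligase, at 1.35 (SE 0.40), which were named after their values were seen. In R98S the ratio was off the median gene for 2 higher and 3 lower of the 6 genes, where 60.9% of all genes were called. Herc2 was at -2.20 (SE 0.25), Ncoa4 at -1.13 (SE 0.31) and Skp1a at 1.20 (SE 0.35) in R98S.

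Genes of iron uptake, delivery and oxidation numbered 21, of which 10 were tested. In total mRNA 2 were higher and 1 was lower in R98S, a share near the 30.3% over all genes, with a median of 0.08 against 0.00. Pcbp2, a chaperone that hands iron to ferritin, was lower (-0.31, SE 0.10), and Steap3, the endosomal ferrireductase of the transferrin cycle, and Slc39a8, a metal importer, were higher (0.35, SE 0.14, and 0.52, SE 0.21). None was called by limma in polysomal RNA, where the median was 0.01 and 13.5% of all genes were called, or in TE, where 0.047% were. The ratio was off the median gene for 3 higher and 3 lower genes in WT, and for 2 and 4 in R98S, near the share over all genes (64.6% in WT and 60.9% in R98S).

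Of 19 genes of haem synthesis, export and breakdown, 17 were tested in total mRNA, where 4 were higher and 4 lower, 47.1% against 30.3% of all genes, with a median of -0.20 against 0.00. The 3 with the smallest adjusted p were lower in R98S. They were Fech, which inserts iron into haem (-0.52, SE 0.10, adjusted p = 0.0012 in limma), Slc48a1, a haem transporter (-0.80, SE 0.16), and Blvrb, a biliverdin reductase (-0.61, SE 0.15). In polysomal RNA 3 of 16 were higher and 0 lower, 18.8% against 13.5% of all genes, with a median of -0.08 against -0.02. The 3 were Urod (0.56, SE 0.16), which acts in the middle of haem synthesis, Slc46a1 (0.81, SE 0.24), a transporter of folate and haem, and Ppox (0.61, SE 0.21), the step before the last. Alas1, at the head of the pathway, was called in neither fraction by limma over all libraries. DESeq2 called it lower in polysomal RNA (-0.45, adjusted p = 0.0295), as did limma without R98S clone 13, number 3. The direction was not shared by all analyses. With that library kept, Alas1 was higher in R98S by edgeR (0.16, adjusted p = 0.881) and by limma within number 3 (0.60, adjusted p = 0.542), and was called in neither. The polysomal to total ratio was off the median gene for 10 higher and 3 lower of the 16 genes in either genotype, 81.2% against 64.6% of all genes in WT and 60.9% in R98S, with medians of 0.53 and 0.59.

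Iron-sulfur clusters are the cofactor whose absence lets IRP1 bind RNA, and all 27 genes of their assembly on the list were tested. In total mRNA 4 were higher and 3 lower, 25.9% against 30.3% of all genes, with a median of 0.06 against 0.00. Isca1 (-0.43, SE 0.09), a late assembly factor, was lower, and Ndor1 (0.38, SE 0.15), a reductase for cytosolic assembly, was higher. In polysomal RNA, with a median of -0.02 as over all genes, 0 were higher and 2 lower, 7.41% against 13.5% of all genes. They were Hspa9 (-0.77, SE 0.18), a mitochondrial chaperone, and Ciapin1 (-0.67, SE 0.19), the partner of Ndor1. The ratio was off the median gene for 14 higher and 3 lower genes in WT and for 13 and 4 in R98S, 63% in either, near the 64.6% and 60.9% over all genes, with medians of 0.42 and 0.31.

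The genes whose profile over the 17 total mRNA libraries was most like that of a member were found by the root mean square difference of centred log2 values among the 9256 genes whose mean reached 100. For Fth1 they were Nsmce2 (0.137), Gm21596 (0.147) and St7l (0.156), against a spread of Fth1 itself of 0.239. For Ftl1 they were Kctd5 (0.157), Fam96b (0.167) and Cox19 (0.172), against 0.277. For Tfrc they were Pnpt1 (0.263), Hsd17b12 (0.278) and Ola1 (0.279), against 0.456. These are descriptions of likeness over shared libraries.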

How the data were processed

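Total mRNA (17 libraries) and polysomal RNA (14) were analysed from 2 gene tables, with genotype, clone and number taken from the labels. The total mRNA library of WT clone 36 with number 1 is not analysed here, and the study had excluded it for clustering with R98S. Per the methods and the submitters' processing notes, rRNA and tRNA reads were removed with Bowtie2 and the rest was aligned to mm10 with TopHat2 2.0.11. Only primary alignments that reached a minimum mapping quality were kept, and reads on exons were counted. The annotation and the use of strand are not given in the sources used here. The deposited signal per gene was made by the authors by dividing counts by DESeq2 size factors within each table. Whole reads were recovered for 100% of values (within 0.01 of a whole number).

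Tests used limma 3.58.1 in R 4.3.3 on log2(value + 1), for genes whose mean reached 10, two-sided, with Benjamini-Hochberg adjustment over all genes and calls at an adjusted p under 0.1, in place of the study's DESeq2 and Babel. Folds are on that log2(value + 1) scale and understate changes of low genes. Alternatives were other pseudocounts, filters and scalings, blocks, left-out numbers, clones and libraries, edgeR 4.0.16 and DESeq2 1.42.0 on recovered reads. The fits were tested on simulated data. Sequences and positions are from GENCODE M21. The closest pair of 107 replicate pairs differed by a chi-square per gene of 4.36 (noise gives 1), so all libraries were kept.

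Libraries with the same number in the 2 genotypes deviated together (in total mRNA, the correlation of their deviations was 0.620, 0.549 and 0.481 for numbers 1, 2 and 3, and 0.695, 0.666 and 0.867 in polysomal RNA), so the numbers were taken to pair the libraries. The main tests between genotypes did not use this pairing. They had genotype as the only term, and the number entered as a block in an alternative. Across numbers the highest correlation was -0.148 in total mRNA, but in polysomal RNA it was 0.769 for number 1 and 0.739 for number 2, above their same-number values, and -0.750 for number 3, so that there only number 3 was set apart. The members, gene lists and tests were chosen with earlier results of these data known. All 8 members are described. For Fth1, Ftl1 and Tfrc the 3 genes of most similar profile are named. From each other list at most the 3 called genes with the smallest adjusted p per comparison are named, apart from Skp1a and Rbx1 in the ratio in WT and the uncalled Cdc14a and Alas2. Among the markers of cell types, Ptprc, Cd68 and genes at 0 are named as well. Some genes that this rule would name are not reported here.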

Additional observations from a re-analysis of the deposited data

Results flagged for a closer look

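Values of single libraries far from the rest of their group were looked for in 36 groups, the 6 tested members in either fraction and in the polysomal to total ratio, by genotype, and 4 were found, where chance gives about 1 in 20 groups. Alas1 in R98S clone 13, number 3, was at 1928.1 in total mRNA, against 461.6 to 908.2 in the other 8 R98S libraries, and at 2391.2 in polysomal RNA, against 382.9 to 460.8 in the other 7. In the same culture Tfrc was at 6000.0 in polysomal RNA, against 1752.3 to 3418.7 in the others. Fth1 in polysomal RNA of WT clone 28, number 2, was at 6685.5, against 8534.0 to 9567.3 in the other 5 WT libraries. The change of the genotype effect from numbers 1 and 2 to number 3 (limma, interaction term) was called for 0 of 6 members in total mRNA, polysomal RNA and TE, where 0, 3 and 0 of all genes were called, so the count says little about the members. In TE the unadjusted p of this term was 0.0078 for Tfrc (1.09, adjusted p = 0.562 in limma) and 0.0039 for Alas1 (1.07, adjusted p = 0.478 in limma).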

How the results depend on the processing

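The low polysomal to total ratios of Fth1 and Ftl1 were called in 30 of 30 alternatives in either genotype. Calls on genotype were less stable, and the cause was not tested. In total mRNA 1 member, Fth1, was called. The count was 0 with no filter on low values, with means per clone, within number 1, 2 or 3, with TMM scaling, with edgeR and with only the 14 matched libraries, and it ranged from 0 to 1 when 1 number, clone or library was left out. The lower level of Fth1 kept its direction in 41 of 41 alternatives and its call in 14. With the replicate block the count was 2 (Fth1 and Ireb2). The block moved the calls over all genes from 1449 to 3307 in polysomal RNA and from 5 to 46 in TE, and it changed no other call of a member. In polysomal RNA the count of 0 became 3 within number 3 and 1 with DESeq2, and ranged from 0 to 1 when 1 number, clone or library was left out. It was 1 without number 2 (Ireb2, -0.71), without number 3 (Alas1, -0.66), without R98S clone 13, number 3 (Alas1) and without WT clone 28, number 2 (Ireb2). In TE it was 0 throughout, and 4 genes in all were called in place of 5 with the variance trend on abundance, an alternative added after seeing the data. For ratios off the median gene the count of 2 became 4 in WT with clone as a random block (Tfrc, -0.29, and Alas1, 0.25, were added). It became 3 in WT with no filter and with centring at abundant protein-coding genes (Tfrc was added in both), and 3 in R98S with no filter and with clone as a random block (Ireb2 was added in both). Leaving out 1 number, clone or library gave 2 to 3 in WT and 2 to 4 in R98S, the 4 without number 3 (Tfrc, -0.43, and Alas1, -0.39). No called value changed its sign. Depth limited only Aco1 and Slc40a1.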

Other observations

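The balance of the ferritin chains, looked at after their values were seen, is given as a description with no test. On polysomes the ratio of Fth1 to Ftl1 averaged 1.07 in R98S (log2 0.10 ± 0.16, SD, n = 8, from -0.09 to 0.33) and 1.52 in WT (log2 0.60 ± 0.39, SD, n = 6, from -0.06 to 1.052). All 8 R98S libraries lay below the WT median, though the groups overlapped. The difference was -0.50 over all libraries, -0.26, -0.28 and -0.79 within numbers 1, 2 and 3, and between -0.67 and -0.41 when 1 library or 1 clone was left out. In total mRNA it was -0.23, and between -0.31 and -0.16 on leaving out a library or a clone. The share of Ftl1 reads removed by the mapping quality filter, or belonging to its copies, is unknown and bears on the ratio itself.

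The ratio of Tfrc to Fth1, the receptor against the store, is likewise given with no test. In total mRNA the difference between R98S and WT was 0.25 on the log2 scale (0.06, 0.51 and 0.12 within numbers 1, 2 and 3), and 0.08 without R98S clone 13, number 3. Leaving out 1 library or 1 clone gave from -0.12 to 0.46, the negative value on leaving out a clone. On polysomes the difference between R98S and WT was 0.53 over all libraries and 0.31 without that library, but -0.72 within number 1, 0.59 within number 2 and 1.36 within number 3. Leaving out 1 library or 1 clone gave from 0.22 to 0.73.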
